A study of Mus musculus with 6 samples.

Results

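p53 target genes are genes that the tumour suppressor p53 switches on after DNA damage or other stress. They were described here as a list of 33 genes: Trp53, which encodes p53 itself, and 32 genes known as its targets. The members were the array probes whose accession maps to 1 of these symbols, and for each gene the brightest probe was used. All 33 were on the array, among 23462 named genes, and 31 entered the test, among 13492 genes with a probe that stood well above background on 3 or more of the 6 arrays. The other two, Plk2 and Eda2r, were too dim on most arrays to be tested.

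RNA came from isolated intestinal crypts, the pockets of the gut lining that hold its stem cells, of mice of mixed strain. All 6 samples carried loxP-flanked alleles of Arid1a (f/f), which encodes a subunit of the BAF chromatin-remodelling complex. The 3 knockout samples also carried Villin-Cre, a recombinase under a promoter that is active throughout the intestinal epithelium, so the deletion is not restricted to stem cells, and the 3 control samples carried no Cre. One-colour arrays were used, 1 per sample. Neither age nor gut segment is given in the sources used here. The labels do not say whether each sample is a different animal, and the p-values therefore describe only how far these samples spread, which may be technical in part. For knockout 2 and control 3 the title and description contradict the source name and genotype, and groups here follow the title and description.

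A level below is the log2 of a probe's signal over the 75th percentile of its array, a difference is knockout minus control with n = 3 per group, and a gene was called higher or lower at an adjusted p under 0.05 (limma, Benjamini-Hochberg over all genes tested). The deleted gene, Arid1a, was at 3.71, 3.47 and 4.01 on controls 1 to 3 and at 2.20, 2.07 and 2.51 on knockouts 1 to 3, so knockout 2 was with the other knockouts and control 3 with the other controls. Controls 1 and 2 and knockouts 1 and 2 shared slide 1, and control 3 and knockout 3 shared slide 2. By Xist and Y-linked genes control 1, knockout 1 and knockout 3 were male and the others female, so neither group came from 1 animal alone. Whether samples of the same sex within a group came from different animals is not known. Crypt RNA was checked against marker lists: all 9 epithelial markers were measured, and 0 of 7 fibroblast markers had a usable probe. Also measured were 11 of 12 T cell and intraepithelial lymphocyte markers, 6 of 7 macrophage and dendritic cell markers and 4 of 5 exocrine pancreas markers. For B and plasma cells 2 of 6 were measured, for endothelium 2 of 4 and for smooth muscle 2 of 4. In such bulk samples fewer cells of a type and less RNA per cell cannot be told apart.

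p53 is kept low in unstressed cells by Mdm2, a ubiquitin ligase that is itself a p53 target and so closes a feedback loop. When kinases of the DNA damage response release p53 from Mdm2, it binds DNA and induces genes that stop the cell cycle, start apoptosis, repair DNA or adjust metabolism. In the intestine the crypt is known as a site of p53-dependent apoptosis after irradiation, with Bbc3 (Puma) as a main effector. Cdkn1a (p21) acts in cell cycle arrest instead. Several members also answer to other pathways: Fas to interferon and immune signals, Gdf15 and Ddit4 to metabolic and integrated stress responses, and Btg2, Plk2 and Plk3 to growth factors as immediate early genes.

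p53 binds as a tetramer to paired copies of a decamer. The promoter sequences of RefSeq (build GRCm38.p6), covering 250 bases before to 50 after a transcript's start, were searched for matches to the p53 decamer consensus, which is its own reverse complement and was therefore read on both strands at the same time. Of the 33 members 25 had a promoter sequence there. A full match was found for 10 of these 25 genes (40%), against 2582 of 27025 genes (9.55%). A pair of decamers with no gap and at most 1 mismatch over its 20 letters was found for 3 of the 25 members (12%), against 22 of all genes (0.0814%). These were Cdkn1a, Ccng1 and Gtse1, and they are shown with the feedback gene Mdm2 and with Trp53, each of which has a single match. Capitals mark the matching decamers and the whole pairs, and each of the 3 pairs holds 1 mismatched letter.
Cdkn1a (chr17:29090881-29090972, plus strand): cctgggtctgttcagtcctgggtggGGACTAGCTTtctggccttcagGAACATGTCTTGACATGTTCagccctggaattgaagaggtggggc
Ccng1 (chr11:40755437-40755506, minus strand): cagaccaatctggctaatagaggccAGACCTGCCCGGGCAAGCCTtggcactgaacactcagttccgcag
Gtse1 (chr15:85859920-85859989, plus strand): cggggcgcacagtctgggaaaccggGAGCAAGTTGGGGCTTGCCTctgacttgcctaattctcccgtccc
Mdm2 (chr10:117710910-117710969, minus strand): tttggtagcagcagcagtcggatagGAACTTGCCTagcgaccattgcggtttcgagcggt
Trp53 (chr11:69580259-69580318, plus strand): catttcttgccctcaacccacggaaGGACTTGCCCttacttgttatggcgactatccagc
In Cdkn1a the capitals start 73 bases before the transcript's start and hold a separate decamer as well as the pair, in Ccng1 they start 195 bases before it, and in Gtse1 they begin at the base before it and run across the start. The genes are known p53 targets, so matches among them are no independent evidence. Known p53 sites in introns or further upstream lie outside these windows. Cdkn1a and Gtse1 each also have a window at another transcript start that holds no match.

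Of the 31 measured members, 8 were called higher in knockout crypts and 2 lower. Among all genes tested 7.28% were called higher and 7.63% lower, so the share of members called higher (25.8%) lay above that background and the share called lower (6.45%) near it. The 8 that rose were Phlda3, Gdf15, Plk3, Pmaip1, Bbc3, Fas, Ccng1 and Perp, and the 2 that fell were Xpc and Dcxr. The median over the members was only 0.05, against -0.01 over all genes tested, with 18 members showing a positive difference and 13 a negative one. The members' order by size is shown in the plot of differences by role. The members' median SD was 0.185 over the controls and 0.298 over the knockouts.

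**Figure D1:**
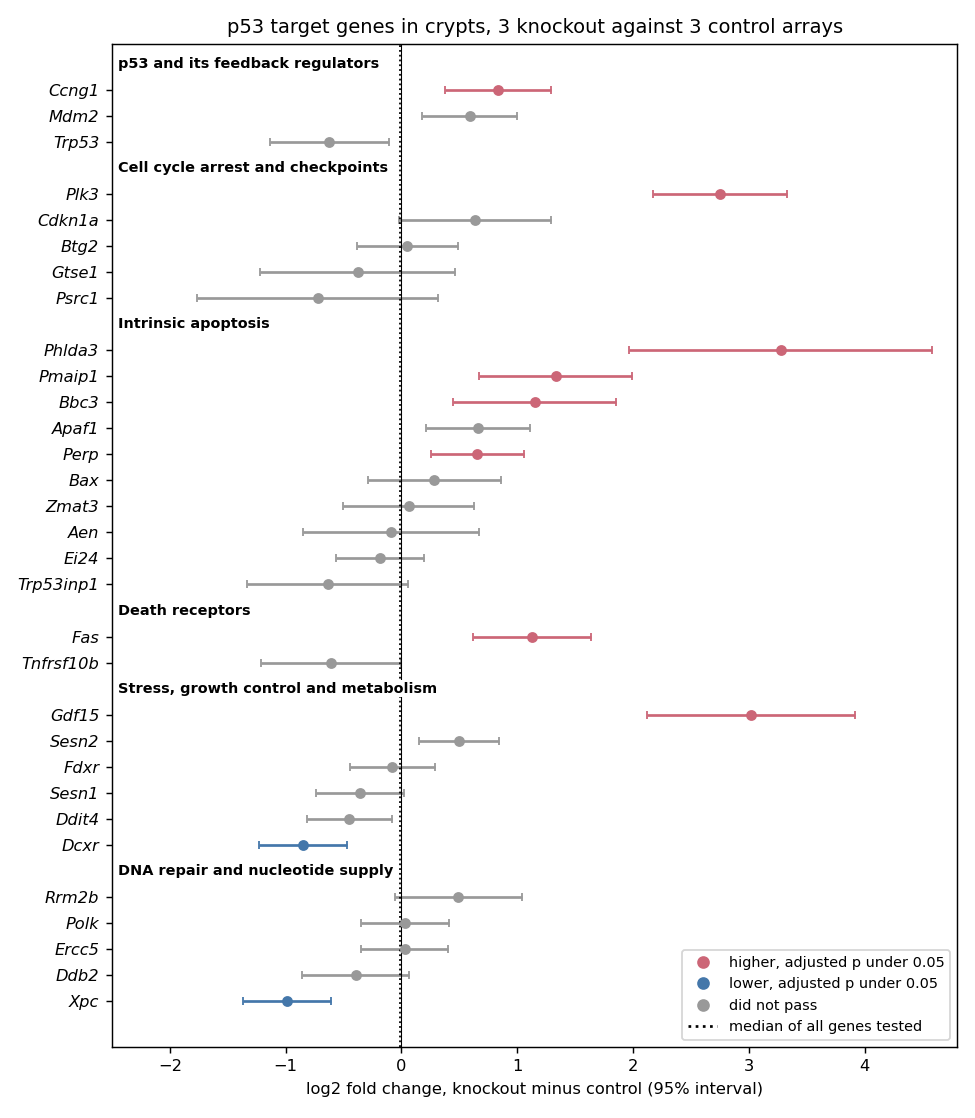
Log2 difference between knockout and control crypts for the 31 measured p53 target genes, grouped by role, with the 95% interval of limma as bars; the dotted line is the median of all 13492 genes tested. Phlda3, Gdf15 and Plk3 lie near 3, 8 genes in red passed as higher and Xpc and Dcxr in blue as lower, and the other 21 did not pass.

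The counts depended on which arrays entered, and so did the counts over all genes, given below under the dependence on processing. They are given there as a range over the single arrays left out, and for sex as a block for the lower calls only. The members' counts in those fits therefore stand without a share of their own. Without control 1, 2 or 3 the number called higher was 2, 3 and 3, and without knockout 1, 2 or 3 it was 10, 4 and 4. The number called lower was 0, 1 and 1 without control 1, 2 or 3, and 4, 1 and 2 without knockout 1, 2 or 3. Without both arrays with contradicting labels 1 member was called higher, Plk3, and 0 lower in limma. At an unadjusted p under 0.05 these counts were 9 and 3, against 1351 and 1266 of all 13492 genes. With the array median as scale, which moved the median of all genes to -0.26, 5 members were called higher and 2 lower, where the counts over all genes went from 982 higher and 1029 lower to 560 and 1389. All 10 called members kept their direction in each of these fits. With sex as a block 5 members were called higher and 1 lower. With groups taken from the source name and genotype, limma called 0 members in either direction, also at an unadjusted p under 0.05, and Arid1a itself then differed by only -0.18. On slide 1 and slide 2 taken separately 26 of the 31 members differed in the same direction (83.9%), as did 81.2% of all genes tested.

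In 16 of the 31 members (51.6%) the groups did not overlap, as in 39.7% of all genes tested. In 11 members all 3 knockout arrays lay above all 3 control arrays and in 5 all lay below, where 19.0% and 20.7% of all genes tested did so. Besides the 10 called genes these were Mdm2, Apaf1 and Sesn2, with the knockout above, and Trp53, Ddit4 and Sesn1, with the knockout below. For these 6 genes the groups did not overlap, yet the difference missed the threshold. In the other 15 measured members the arrays of the groups overlapped.

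Trp53 itself was lower in the knockout but did not pass. Its transcript was at 1.04, 0.66 and 1.05 on controls 1 to 3 and at 0.55, -0.05 and 0.37 on knockouts 1 to 3. The difference was -0.62 ± 0.22 (SE; adjusted p = 0.0964), with -0.60 on slide 1 and -0.68 on slide 2. Without knockout 1 it passed as lower (-0.75, adjusted p = 0.0481). The control arrays were all above the knockout arrays, by as little as 0.11 between the nearest pair. p53 is regulated mainly at the level of its protein, which an array does not measure.

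The feedback regulators differed in the opposite direction to Trp53. Ccng1, which encodes cyclin G1, a partner of the phosphatase that acts on Mdm2, was at 1.80, 1.74 and 1.59 on the control arrays and at 2.83, 2.26 and 2.53 on the knockout arrays. It rose by 0.84 ± 0.19, or 1.78-fold (adjusted p = 0.0339), and by 0.78 on slide 1 and 0.94 on slide 2. The call for Ccng1 held without knockout 1 or knockout 2 and was lost without any other single array (adjusted p from 0.0704 to 0.106). Mdm2 was at 3.82, 3.90 and 4.02 on control arrays and at 4.27, 4.52 and 4.71 on knockout arrays. The groups did not overlap, and the difference of 0.59 ± 0.17 fell short of the threshold (adjusted p = 0.0637). A dimmer Mdm2 probe gave -1.92, -1.90 and -2.31 in controls and -1.27, -1.13 and -1.40 in knockouts, a difference of 0.77 with no overlap either. With slide as a block Mdm2 passed (adjusted p = 0.0449).

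Among the cell cycle and checkpoint genes Plk3 stood out. Plk3 encodes a polo-like stress kinase that can phosphorylate p53. Its level was 0.70, 0.76 and 0.87 on the control arrays and 3.11, 3.99 and 3.48 on the knockout arrays. Every knockout array was at least 2.24 above every control array. The difference was 2.75 ± 0.24, a 6.73-fold rise (adjusted p = 0.00157), with 2.82 on slide 1 and 2.62 on slide 2. Plk3 was the 1 member called with each single array left out, with both contradicting arrays left out and on slide 1 alone (0.0247 as its adjusted p without the contradicting arrays).

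Plk2, the related kinase, could not be tested. No control array measured it well above background, at -5.32, -4.45 and -5.64, and was so on knockouts 1 and 3, at -3.16 and -3.22, while knockout 2 was at -4.08. All knockout arrays lay above the controls, and the knockout mean was 1.22-fold above the lowest signals measurable on the control arrays. That mean includes knockout 2, which was not well above background, so the value is no lower bound. Btg2, an antiproliferative gene of the same immediate early kind, had overlapping groups on both of its probes, with a difference of 0.05 and an interval from -0.39 to 0.48.

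Cdkn1a, the Cdk inhibitor p21 and the best known p53 target, was higher on average but did not pass. It was at 4.10, 3.94 and 4.62 on the control arrays and at 4.54, 4.70 and 5.31 on the knockout arrays. Control 3 lay above knockout 1, so the groups overlapped. The difference was 0.63 ± 0.28 (adjusted p = 0.157) with an interval from -0.02 to 1.29, and it was close to equal on the slides, at 0.60 on slide 1 and 0.69 on slide 2. In both groups the array on slide 2 was the highest, and with slide as a block Cdkn1a passed (adjusted p = 0.0351). The Cdkn1a window that holds the pair is printed above, and a second window, chr17:29093519-29093818, holds no match. A second Cdkn1a probe, for another transcript, was well above background on 0 control arrays and 1 knockout array and was not kept. Which of these starts gave the measured signal was not tested.

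Gtse1 and Psrc1, p53 targets that are mainly expressed in G2 and mitosis, did not pass. Psrc1, a spindle protein, was at -0.97, -1.33 and -1.02 on control arrays, at -0.79 on knockout 1, and at -2.25 and -2.46 on knockouts 2 and 3. Gtse1, a microtubule-binding protein that restrains p53, was at -0.12, -0.87 and -0.13 in controls and at -0.07, -1.02 and -1.16 in knockouts. For both genes knockout 1 was the highest of all 6 arrays and knockouts 2 and 3 the lowest, so the mean differences of -0.72 for Psrc1 and -0.38 for Gtse1 rested on those 2 arrays. Without knockout 1 the difference of Psrc1 was -1.25 (adjusted p = 0.00915).

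Knockouts 2 and 3 were also the lowest arrays in the cell cycle list, where control 1 and not knockout 1 was the highest. This list held 28 genes that are repressed when p53 acts with the DREAM complex, a repressor of cell cycle genes, and 0 were called in limma, with 9 lower and 0 higher at an unadjusted p under 0.05, where 2425 and 2193 of the 13492 genes tested were lower and higher. Their median deviation from the control mean was 0.05, -0.87 and -1.01 on knockouts 1 to 3, against 0.23, -0.23 and 0.02 on controls 1 to 3. The list's median difference was -0.58, with 27 of 28 negative, and it was -0.36 on slide 1 and -1.01 on slide 2. Its 4 genes with the smallest p were Mcm6 and Mcm2, of the replicative helicase, at -1.25 and -1.17, the kinetochore gene Cenpf at -0.80 and Pcna, the sliding clamp of replication and also a p53 target, at -0.56. Whether proliferation had a part in the values of Gtse1 and Psrc1 was not tested.

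Of the 10 members in the intrinsic apoptosis group, 4 rose and 0 fell, where 7.28% of all genes tested rose and 7.63% fell. Phlda3, which encodes a small protein that blocks Akt at the membrane, had the largest difference of all members. It was at -4.08, -3.12 and -3.32 on the control arrays, not well above background on 1 of them, and at 1.01, -0.97 and -0.74 on the knockout arrays. Knockout 1 was higher than the other two, and the least gap between the groups was 2.15. The difference was 3.27 ± 0.55 or 9.67-fold (adjusted p = 0.0135), with 3.62 on slide 1 and 2.57 on slide 2. Its size depended on the processing and on 1 array, at 1.79 with normexp background correction and 2.65 without knockout 1, and the call held in both. The call was lost without control 1 (2.99, adjusted p = 0.0535) and without both arrays with contradicting labels (3.74, adjusted p = 0.0792).

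The pro-apoptotic BH3-only genes both rose. Pmaip1 (Noxa), which neutralises Mcl1, was at 3.62, 3.98 and 3.90 on control arrays and at 4.58, 5.45 and 5.47 on knockout arrays, a rise of 1.33 ± 0.28 or 2.52-fold (adjusted p = 0.0254). Bbc3 (Puma), which binds all antiapoptotic Bcl2 proteins, was at 0.84, 0.16 and 0.32 on control arrays and at 1.28, 1.36 and 2.14 on knockout arrays. Bbc3 rose by 1.15 ± 0.30 or 2.22-fold (adjusted p = 0.0462), with 0.82 on slide 1 and 1.82 on slide 2. In both genes the lowest knockout array was knockout 1, and it exceeded the highest control by 0.59 for Pmaip1 and by 0.44 for Bbc3. Each call held without knockout 1 and was lost without any other single array, with an adjusted p from 0.0597 to 0.0985 for Pmaip1 and from 0.0730 to 0.136 for Bbc3.

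Perp, a membrane protein of desmosomes that p53 and p63 induce, rose by a small amount. Its 3 control arrays were nearly equal, at 6.04, 6.11 and 6.13, and the knockout arrays were at 6.51, 6.94 and 6.81. The difference was 0.66 ± 0.17 or 1.58-fold (adjusted p = 0.0454). The call held without knockout 1 and was lost without any other single array (adjusted p from 0.101 to 0.162). Apaf1, the scaffold of the apoptosome, was at 0.50, 0.89 and 0.99 in controls and at 1.40, 1.34 and 1.62 in knockouts. Its difference, 0.66 ± 0.19, was as large as that of Perp but did not pass (adjusted p = 0.0613). Apaf1 passed in some other fits, among them slide (adjusted p = 0.0429) or replicate number (adjusted p = 0.0496) as a block. A second Apaf1 probe differed by 0.77 with no overlap.

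The remaining apoptosis members did not pass. Bax, the effector that opens the outer mitochondrial membrane, was at 3.36, 3.03 and 2.84 in controls and at 3.74, 3.34 and 3.0 in knockouts, a difference of 0.28 with an interval from -0.29 to 0.86. Within each slide the knockout arrays of Bax averaged higher, by 0.35 on slide 1 and 0.16 on slide 2. Aen, a nuclease induced by p53, was at 3.99, 3.39 and 2.70 on knockouts 1 to 3 against 3.38 to 3.57 in controls, so that its knockout arrays lay on both sides of the controls, and its 3 probes showed the same order. Zmat3, an RNA-binding protein, had the same order in the knockout, at 0.50, 0.14 and -0.34. Ei24, of the endoplasmic reticulum, differed by -0.19. Trp53inp1, which promotes p53 phosphorylation, differed by -0.64 on its brighter probe and by 0.09 on its dimmer one, the 1 gene of 12 with several usable probes whose probes differed in sign.

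**Figure D2:**
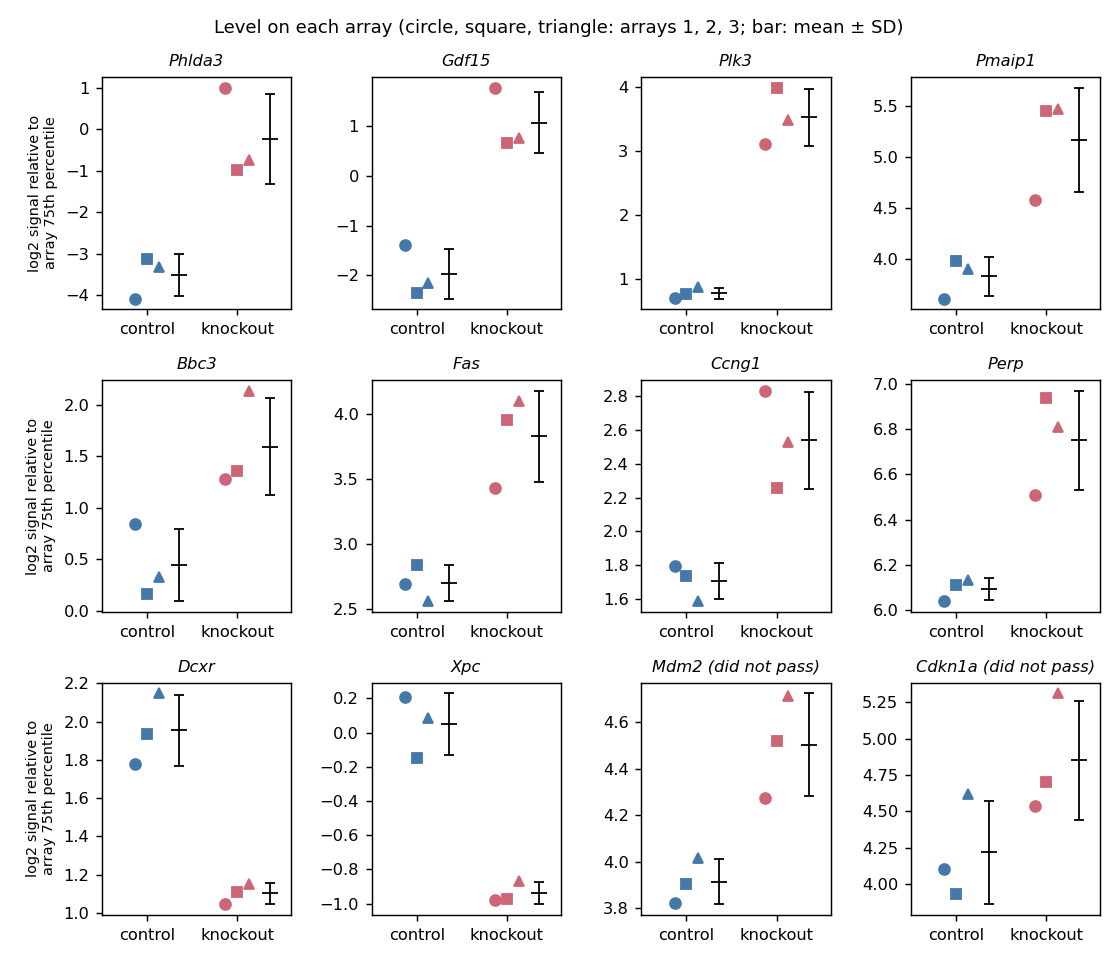
Level (log2 of signal over the array's 75th percentile) on each of the 3 control (blue) and 3 knockout (red) arrays, with mean ± SD, for the 10 called p53 target genes and for Mdm2 and Cdkn1a, which did not pass; each panel has its own scale. Only for Cdkn1a do the arrays of the groups overlap.

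Of the death receptors Fas rose. It was at 2.70, 2.84 and 2.56 on control arrays and at 3.43, 3.95 and 4.09 on knockout arrays, and the nearest arrays of the groups were 0.59 apart. The difference was 1.13 ± 0.21 or 2.18-fold (adjusted p = 0.0198), with 0.92 on slide 1 and 1.53 on slide 2. A dimmer probe of Fas gave 1.1, also without overlap. The call held without knockout 1 or knockout 3, and without any other single array the adjusted p was 0.0595 to 0.0785. Tnfrsf10b, the mouse receptor for the death ligand Trail, was at 1.34, 1.12 and 1.56 in controls and at 0.58, 0.40 and 1.22 in knockouts. Its difference of -0.61 ± 0.25 did not pass (adjusted p = 0.142), and the direction was opposite to that of Fas. Eda2r, a receptor for ectodysplasin, stayed near background on all 6 arrays with each of its 3 probes.

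Fas is also carried by lymphocytes and induced by interferon, and values for both stand beside it. Of 16 interferon-responsive genes 11 rose and 0 fell, where 7.28% of all genes tested rose and 7.63% fell. The list's median difference was 1.26, and its median deviation was 1.08, 1.30 and 1.5 on knockouts 1 to 3. Examples are the GTPases Irgm1, Gbp2 and Igtp, at 3.11, 3.41 and 2.84, and the ubiquitin-like Isg15, at 2.07. Of 11 measured T cell and intraepithelial lymphocyte markers 1 rose, Thy1, and the list's mean level ranged from -0.87 to 0.68 on control arrays and from -0.11 to 1.25 on knockout arrays. The part of interferon signalling and of lymphocytes in the values of Fas was not tested.

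Of the 6 stress, growth and metabolism genes, 1 rose and 1 fell, where 7.28% of all genes tested rose and 7.63% fell. Gdf15, a secreted stress hormone, was at -1.40, -2.34 and -2.15 on control arrays and at 1.76, 0.66 and 0.75 on knockout arrays. The groups were at least 2.05 apart. Gdf15 rose by 3.02 ± 0.38 or 8.09-fold (adjusted p = 0.00523), with 3.08 on slide 1 and 2.89 on slide 2. With normexp background correction the rise was smaller, at 2.24. The call held with each single array left out, and without both contradicting arrays the adjusted p was 0.0598. Array 1 was the highest within both groups.

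Dcxr, dicarbonyl and L-xylulose reductase, fell. It was at 1.78, 1.94 and 2.15 on control arrays and at 1.04, 1.11 and 1.15 on knockout arrays, which were nearly equal. The difference was -0.85 ± 0.16, a 1.81-fold fall (adjusted p = 0.0187), and a second probe gave -0.62 without overlap. The call for Dcxr held without knockout 1 or knockout 3, and otherwise the adjusted p was 0.0544 to 0.0687.

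The sestrins and Ddit4, which restrain the growth kinase mTORC1, did not pass. Sesn2 was at 0.93, 0.96 and 0.93 in controls and at 1.30, 1.45 and 1.56 in knockouts, a difference of 0.50 ± 0.15 (adjusted p = 0.0642, and 0.0352 without knockout 1). Sesn1 was at 3.39, 3.26 and 3.60 in controls and at 2.95, 3.1 and 3.11 in knockouts, a difference of -0.36 (adjusted p = 0.161). Ddit4 (Redd1) was at 4.41, 4.42 and 4.63 in controls and at 3.89, 4.08 and 4.13 in knockouts, a difference of -0.45 (adjusted p = 0.0955). In each of these 3 genes the groups did not overlap, above the controls for Sesn2 and below them for the other two. Fdxr, ferredoxin reductase of mitochondria, had overlapping groups and an interval from -0.44 to 0.29.

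Of the 5 genes of DNA repair and nucleotide supply, 0 rose and 1 fell, where 7.28% of all genes tested rose and 7.63% fell. Xpc, which recognises DNA lesions in nucleotide excision repair, was at 0.21, -0.15 and 0.09 on control arrays and at -0.98, -0.97 and -0.87 on knockout arrays. The difference was -0.99 ± 0.16, a 1.98-fold fall (adjusted p = 0.0118), with -1.01 on slide 1 and -0.95 on slide 2. A dimmer Xpc probe gave -0.92 without overlap. Without control 1 the call of Xpc was lost (-0.91, adjusted p = 0.0612). Ddb2, the partner of Xpc in lesion recognition, differed by -0.40 and did not pass (adjusted p = 0.197), although all knockout arrays of its dimmer probe lay below the controls.

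For the other repair genes no difference was detected. Ercc5, the endonuclease of the same pathway, and Polk, a translesion polymerase, each differed by 0.03, with intervals from -0.35 to 0.40 and from -0.35 to 0.41. Rrm2b, the p53-inducible subunit of ribonucleotide reductase, was dim, above background on 1 control and 2 knockout arrays, and differed by 0.49 (adjusted p = 0.180).

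**Figure D3:**
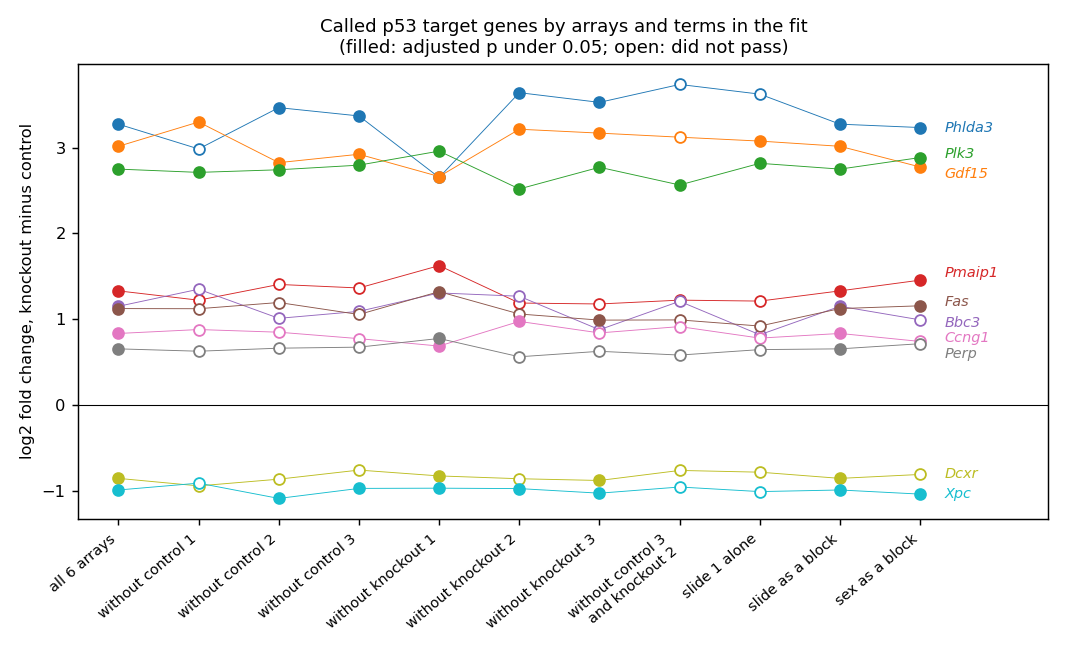
Log2 difference of the 10 called p53 target genes when single arrays, both arrays with contradicting labels, or slide 2 are left out, and with slide or sex as a block; filled points passed an adjusted p of 0.05. Each gene keeps its sign across the settings, while the calls of Pmaip1, Bbc3, Perp, Fas, Ccng1 and Dcxr are often lost and those of Plk3 never.

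The promoter matches were also set beside the calls. Among the members called higher, 6 had a promoter sequence and 1 of them, Ccng1, held a decamer match (16.7%), whereas 9 of the 19 other members with a sequence held one (47.4%). The promoters of Phlda3 and Plk3 are given whole, as the windows of strongly raised members that hold no match.
Phlda3 (chr1:135765835-135766134, plus strand): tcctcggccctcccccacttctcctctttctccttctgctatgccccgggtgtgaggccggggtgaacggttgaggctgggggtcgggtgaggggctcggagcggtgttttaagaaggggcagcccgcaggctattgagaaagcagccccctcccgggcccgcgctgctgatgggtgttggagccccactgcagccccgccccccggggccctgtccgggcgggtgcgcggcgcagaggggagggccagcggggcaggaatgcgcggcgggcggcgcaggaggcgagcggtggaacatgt
Plk3 (chr4:117133914-117134213, minus strand): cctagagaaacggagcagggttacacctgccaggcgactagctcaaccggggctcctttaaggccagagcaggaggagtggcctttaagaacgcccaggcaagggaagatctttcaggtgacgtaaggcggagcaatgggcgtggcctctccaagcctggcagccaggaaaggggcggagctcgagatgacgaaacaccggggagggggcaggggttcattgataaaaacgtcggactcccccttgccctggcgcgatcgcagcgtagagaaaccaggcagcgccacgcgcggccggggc
These counts are small, and they say only that no whole decamer match lies inside these windows. The Phlda3 window ends within letters that fit the start of the decamer. A match that runs past the end of a window could not be found.

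A second list of 25 p53 targets outside the 33 gave another picture. Of 18 measured, 0 rose and 4 fell in limma, with 1 higher and 6 lower at an unadjusted p under 0.05. Their median was -0.41. Among all 13492 genes tested 7.28% rose and 7.63% fell, with 2193 higher and 2425 lower at that unadjusted p. The thiamine transporter gene Slc19a2 was at 1.81, 1.54 and 1.40 in controls and at 0.81, 0.11 and 0.16 in knockouts, a difference of -1.22 ± 0.24 (adjusted p = 0.0211). Ptp4a3, a phosphatase, changed by -1.57 and was above background on 2 of 3 knockout arrays, Prkab1, a subunit of the energy sensor AMPK, changed by -0.84, and Ak1, adenylate kinase, by -1.0 on a probe above background on 2 control arrays and 1 knockout array. The gene behind the 1 higher was Rps27l, a ribosomal protein paralogue, at 0.59 (chosen after its values were seen). Over both lists of measured p53 targets 8 genes rose and 6 fell.

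Genes that act on p53 were measured as well. Of 23 such genes 2 rose and 1 fell, where 7.28% of all genes tested rose and 7.63% fell. The median of the 23 genes was 0.10. Cdkn2a, whose locus encodes p19Arf, an inhibitor of Mdm2, and the Cdk inhibitor p16, did not stand out from background in the controls, at -5.28, -4.62 and -4.93, and was well above it on all knockout arrays, at -2.31, -1.95 and -2.24. The knockout level was at least 3.05-fold higher, and the probe entered the test through its knockout arrays alone, so its place among the 2 genes that rose is no independent result. The probe was named by gene only, so the transcripts of the locus cannot be told apart. Daxx, a chaperone of histone H3.3 that binds p53 and Mdm2 and is induced by interferon, rose by 1.05, and Hipk2, a kinase that phosphorylates p53, changed by -0.98. Mdm4, the relative of Mdm2 that inhibits p53, differed by 0.73 and did not pass (adjusted p = 0.0919).

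**Figure D4:**
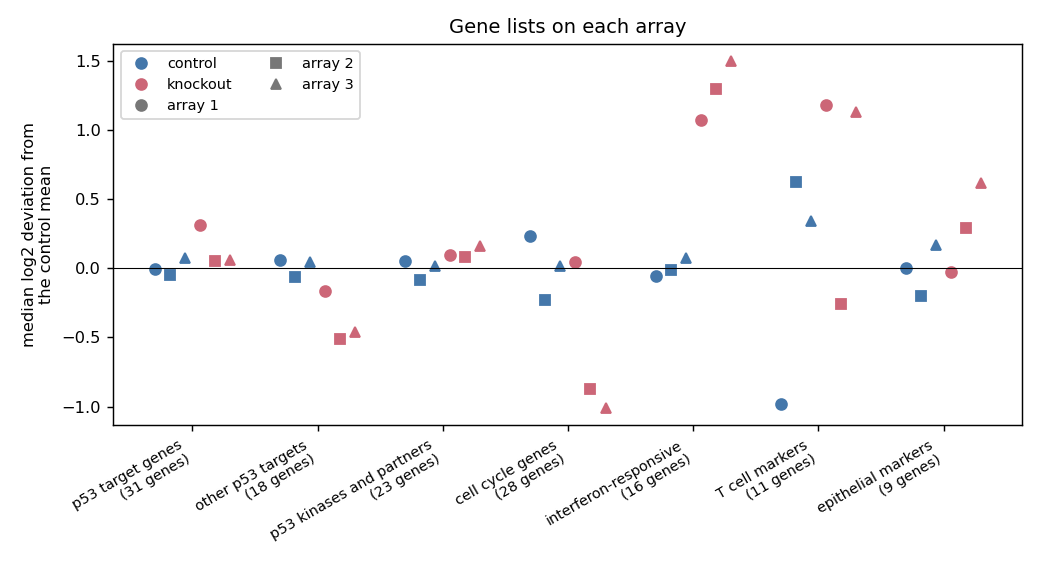
Median log2 deviation from the control mean, over the measured genes of each list, on each of the 3 control (blue) and 3 knockout (red) arrays. The p53 target genes stay between -0.05 and 0.32 on all 6 arrays, the interferon-responsive genes lie above 1 on each knockout array, and the cell cycle genes are near 0 on knockout 1 and near -1 on knockouts 2 and 3.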

How the data were processed

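RNA of 3 control and 3 knockout crypt samples was hybridised to one-colour Agilent arrays. The deposited scanner tables hold the intensity of each spot, background-subtracted and detrended within the array by Feature Extraction, per the file headers (version 12.0.3.1; 11.5.1.1 in the submitters' processing notes). Flags for saturation, outliers and signal above background were used as deposited, per the file headers, and no spot was saturated. The authors' deposited value table is on a log2 scale, centred per probe, and served as an alternative. Its column medians were 0.20, 0.061 and -0.32 on the 3 control arrays, then -0.072, 0.22 and -0.18 on the 3 knockout arrays, its direction and scale matched the scanner values, and the exact steps behind it are not given in the sources used here.

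Here the processed intensity was scaled to each array's 75th percentile and taken to log2. Precision is limited by the number of arrays. Of the probes, 26746 were marked well above background on 3 or more of the 6 arrays and kept, named through RefSeq accessions, and 1 probe per gene, the brightest, was tested with lmFit and eBayes (limma 3.58.1, R 4.3.3) on 13492 genes with Benjamini-Hochberg adjustment; the fit was tested on simulated data. A probe below background on every array of a group gives a bound, set against the lowest signal well above background. This holds only where all arrays of the other group are above background, which was not so for Plk2. Alternatives were leaving out arrays, slide, sex or replicate number as a block, other scaling, background correction (normexp on median signals, offset 50), filters, probe means, array weights and labels by source name and genotype. All 33 members, Arid1a and up to 4 genes per other list with the smallest p were named. The members and lists were chosen with earlier results of these data known. Promoters came from RefSeq (GRCm38.p6).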

Additional observations from a re-analysis of the deposited data

How the results depend on the processing

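Against 8 members called higher and 2 lower, grouping by source name and genotype gave 0 and 0 in limma (0 and 0 at an unadjusted p under 0.05), and 0 and 0 over all genes (123 and 84 unadjusted), with Arid1a at -0.18. Without both arrays with contradicting labels the counts were 1 and 0, over all genes 177 and 143, and Arid1a was -1.23 (adjusted p = 0.0978). Sex as a block gave 5 and 1 (643 lower over all genes). Slide 1 alone gave 2 and 0 (11 and 4 unadjusted; over all genes 319 and 370), with a members' median of 0.22. Array median scaling gave 5 higher (560 over all genes) and turned the members' median to -0.20. No filter on dim probes gave 3 and 0 (12 and 3 unadjusted; over all genes 366 and 331). Array weights gave 13 and 8 (3489 and 3608), with weights from 0.28 to 6.35. An adjusted p under 0.1 gave 11 higher and 4 lower (1644 and 1801 over all genes). Leaving out single arrays gave 2 to 10 higher and 0 to 4 lower, 352 to 1710 and 286 to 2323 over all genes, and a members' median from -0.014 to 0.24. Same-numbered arrays deviated together with r = 0.25, 0.08 and 0.35, so the numbers do not meet the rule for pairs, although every array correlated best with its own number; the replicate block gave 9 higher and 3 lower, with Trp53 (adjusted p = 0.0446), Apaf1 (0.0496) and Cdkn1a (0.0482) passing and Bbc3 (0.0529) not. Members that turned sign had not passed. By source name and genotype these were Trp53 0.11, Gtse1 0.21, Psrc1 0.092, Bax -0.049, Ei24 0.023, Tnfrsf10b 0.16 and Fdxr 0.056. Elsewhere Polk turned with sex as a block (-0.0016), quantile normalization (-0.051), array median scaling (-0.22) and array weights (-0.13), and Ercc5 with array median scaling and array weights (-0.22 and -0.044). Array median scaling, which moves all genes down together and so turns those just above 0, also gave Btg2 -0.20 and Zmat3 -0.19, and slide 1 alone turned Btg2 (-0.0093) and Aen (0.22). With single arrays left out Btg2 ranged from -0.072 to 0.14, Polk from -0.030 to 0.13, Zmat3 from -0.14 to 0.28, Ercc5 from -0.041 to 0.12 and Aen from -0.40 to 0.24. The cause was not tested.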

Other observations

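Markers of other cells the crypts could hold gave the following counts, where 7.28% of all genes tested rose and 7.63% fell. Of 9 epithelial markers 0 rose and 1 fell, Cdx1, a homeobox factor of the gut epithelium, at -1.14. Of 6 measured macrophage and dendritic cell markers 1 rose and 1 fell, of 2 B and plasma cell markers and 2 endothelial markers 0 passed either way, with 1 lower and 0 at an unadjusted p under 0.05, and of 2 smooth muscle markers 1 rose. Of 4 measured markers of the exocrine pancreas, the neighbouring gland, 1 was called lower, Cpa1, a digestive protease; it was well above background on the 3 control arrays alone and entered the test through them, so its call is no independent result. The list's median deviation from the control mean reached -1.03 and -1.99 on knockouts 2 and 3 and was 0.10 on the first.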
